A study of Homo sapiens with 18 samples.

Results

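ES8 cells, a Ewing sarcoma line, that stably expressed the ΔRRM allele of *DNAJC17* were compared with parental ES8 cells, both after silencing of endogenous *DNAJC17*. The comparison takes 6 of the 18 libraries of the series, the 3 ES8 3xFLAG-DNAJC17-dRRM libraries with sgDNAJC17 (called ΔRRM here) and the 3 ES8 parental libraries with sgDNAJC17 (called knockdown). Both groups carried dCas9-KRAB, a dead Cas9 fused to a transcriptional repressor that an sgRNA leads to a gene (CRISPRi), both received the same sgRNA, aimed at the 5' end of *DNAJC17*, and both were kept in puromycin for 72 hours. The ΔRRM cells differed from the parental cells by a lentiviral EF1 promoter construct that encodes DNAJC17 without its RNA recognition motif, and by the hygromycin selection that made the population. No ΔRRM library with a control sgRNA was analysed here, so the allele and the separate history of its cell population cannot be told apart. The 3 parental ES8 libraries with the control sgRNA (sgCTL) are given beside the results as a reference level, and 3 libraries each of the same 3 kinds from Rh30, an alveolar rhabdomyosarcoma line, are used at the end.

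DNAJC17 belongs to the J-domain proteins, co-chaperones that stimulate the ATPase of HSP70. Its J-domain is N-terminal and its RNA recognition motif (RRM) C-terminal, it is required for the survival of most human cell lines, and it is found with the PRP19-associated part of the spliceosome. The spliceosome removes introns in a cycle of activation, catalysis and disassembly, and genes with many introns need many such rounds per transcript. When cells are stressed, the integrated stress response raises the translation of the transcription factor ATF4, which in turn drives genes for amino acid supply and for recovery from the stress.

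Library totals ran from 36004616 to 39358294 counts in the knockdown and from 40031685 to 43160057 in ΔRRM cells. Values are given as CPM, the usual counts-per-million unit, with library sizes scaled by edgeR's TMM over the 9 ES8 libraries. All 8 genes of a list of ES8 identity markers were above 3 counts in every library, and their summed level was 949.5 to 977.1 CPM in the knockdown and 920.1 to 990.2 CPM in ΔRRM cells. Of 12 markers of skeletal muscle, which would mark Rh30 cells, *MYOG*, *MYF5*, *CHRNA1* and *MYMK* had no count in any knockdown library, and *MYF5* had none in any ΔRRM library. The muscle markers summed to 102.0 to 117.9 CPM in the knockdown and 118.7 to 130.5 CPM in ΔRRM cells, most of it *FGFR4*. The ΔRRM replicate C held 1.95 CPM of *MYOD1* and 1.88 CPM of *DES*, against 0.405 to 0.892 CPM and 0.455 to 0.708 CPM in the other 5 libraries, and their part in the results was not tested. The 15 epithelial markers summed to 311.0 to 388.8 CPM in the knockdown and 315.7 to 334.6 CPM in ΔRRM cells.

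The libraries with one label were not equally alike. In a principal component analysis of the 9 ES8 libraries, the first component (43.6% of the variance) placed the knockdown libraries at 22.4 to 28.6 and the ΔRRM and sgCTL libraries at -14.8 to -11.4. The second (19.2%) set knockdown replicate A (-17.5) and ΔRRM replicate B (-21.6) apart from the other libraries of their groups (9.94 and 11.5, and 6.24 and -6.89). Knockdown A had a trend with base composition, with a median log2 difference from the sgCTL mean of -0.31 for 2414 protein-coding genes of at most 40% GC and 0.16 for 2148 genes above 60% GC, where knockdown B and C had 0.02 and 0.04, and -0.10 and -0.10. For the same low and high GC genes, ΔRRM A had 0.06 and -0.06, ΔRRM B -0.105 and 0.08, and ΔRRM C -0.09 and 0.04. ΔRRM B and C thus had smaller trends in the direction of knockdown A. Results were also computed without knockdown A and ΔRRM B, a choice made after the data had been seen. The study's methods state that cells were plated in triplicate. Neither they nor the labels say whether A, B and C came from separate transductions, so p-values measure the spread between these libraries.

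In GRCh38, *DNAJC17* (ENSG00000104129) spans positions 40765155 to 40807478 of chromosome 15 and is read from the minus strand. The knockdown libraries held 1.74, 2.14 and 1.70 CPM of *DNAJC17* and the ΔRRM libraries 337, 312 and 348 CPM. Every ΔRRM library was far above every knockdown library and above the sgCTL libraries, which held 12.4, 13.9 and 13.7 CPM. The log2 fold change over the knockdown was 7.49 ± 0.13 (SE, n = 3 per group, edgeR adjusted p = 1.89e-12), a 180.0-fold difference. An exact permutation test over the 6 libraries gave a two-sided p = 0.1, the smallest that 3 against 3 allow. Reads of the transgene and of the endogenous gene are counted together, so this value shows that the labels hold for the transgene and does not measure the silenced gene.

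Of the genes with a 5' end within 50 kb of that of *DNAJC17*, *ZFYVE19*, which lies on the other strand and overlaps the 5' end of *DNAJC17*, had 10.0, 9.68 and 9.74 CPM in the knockdown and 11, 14 and 12.15 CPM in ΔRRM cells. All 6 values were below the sgCTL libraries (20.7 to 23.2 CPM). Its log2 fold change between ΔRRM and knockdown was 0.35 (SE 0.12, adjusted p = 0.0743, edgeR), and against sgCTL it was lower in ΔRRM cells by -0.80 (adjusted p = 0.0051, edgeR over the 9 ES8 libraries). The neighbours *C15orf62* and *GCHFR* had log2 fold changes of -0.56 and -0.12 and did not pass the test, and *PPP1R14D*, *SPINT1*, *SPINT1-AS1* and *SUMO2P15* were too low to be tested.

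Across 17099 genes tested, 82 were called up in ΔRRM cells (0.48% of the genes tested) and 254 called down (1.49%), at an adjusted p under 0.05 and a change of at least 2-fold (edgeR). At the adjusted p alone, 1257 genes rose (7.35%) and 1259 fell (7.36%), so most of the measured differences were below 2-fold. The median log2 fold change of all genes was 0.01. With knockdown A and ΔRRM B left out, 132 genes were called up and 299 down, and 2794 rose and 2723 fell at the adjusted p alone. With single libraries left out, 457 to 1738 rose and 610 to 1636 fell at the adjusted p alone. Counts of a list in these fits must be read against these totals over all genes, and not against 7.35% and 7.36%. Called genes differed by class. Protein-coding genes were 81.2% of the genes tested and 76.8% of those called up (63 of 82), but 41.3% of those called down (105 of 254). Long non-coding RNA genes were 11.6% of the genes tested and 31.9% of those called down, and small nucleolar RNA (snoRNA) genes 0.228% and 6.30%. Genes with low counts can pass the filter through the group in which they are high.

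**Figure D1:**
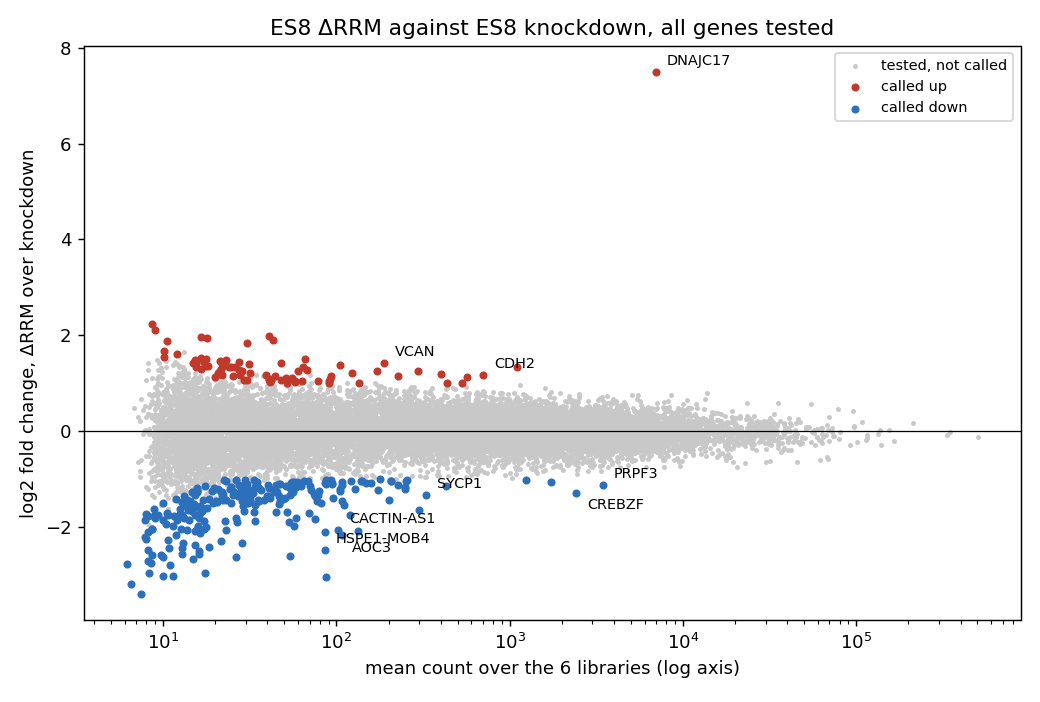
Log2 fold change of ΔRRM over knockdown in ES8 (vertical) against the mean count over the 6 libraries (horizontal, log axis), 1 point per gene tested. Apart from *DNAJC17* at 7.49, the 82 genes called up (red) and 254 called down (blue) lie mostly among genes with low counts, and *PRPF3* and *CREBZF*, with mean counts of 3465 and 2419, are exceptions.

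The integrated stress response was lower in ΔRRM cells than in the knockdown. Of 24 genes of the list tested, 7 fell and 0 rose (29.2% down, against 7.36% of all genes), with a median log2 fold change of -0.24. *PPP1R15A*, which encodes GADD34, the subunit that directs a phosphatase to eIF2α and so ends the response, had 114, 108 and 114 CPM in the knockdown and 58.6, 67.4 and 62.05 CPM in ΔRRM cells. The groups did not overlap, and the ΔRRM values lay closer to those of sgCTL (53, 53.8 and 53.5 CPM) than to those of the knockdown. Its log2 fold change was -0.83 (SE 0.09, adjusted p = 0.000493, edgeR). *ATF4*, the central transcription factor of the response, had 612, 546 and 556 CPM in the knockdown and 349.5, 414 and 396 CPM in ΔRRM cells, a log2 fold change of -0.55 (SE 0.09, adjusted p = 0.00292). *CHAC1*, which degrades glutathione and is a target of ATF4, had 15.6, 13.2 and 12.8 CPM in the knockdown and 8.52, 8.97 and 8.83 CPM in ΔRRM cells (log2 fold change -0.65, adjusted p = 0.00469). *SESN2*, a stress-induced restraint on mTORC1, and *GDF15*, a secreted stress cytokine, fell by 0.42 and 0.54 on the log2 scale. *SLC3A2* and *SLC7A5*, the 2 chains of an amino acid transporter, named here after their values were seen, fell by 0.34 and 0.36. *ASNS*, the asparagine synthetase, did not follow, at 0.02 on the log2 scale (adjusted p = 0.928). Against sgCTL, the list had a median log2 fold change of 0.08 in ΔRRM cells and 0.22 in the knockdown. With each library left out in turn, 3 to 7 members fell, and with knockdown A and ΔRRM B both left out 10 fell and 1 rose. Over all genes, 610 to 1636 fell in the former fits and 2723 in the latter.

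ATF4 binds composite elements with the letters TGATGNAA together with a C/EBP partner. The letters were searched on both strands of promoter windows of 300 bases (250 before to 50 after a start, RefSeq, GRCh38.p14), and occurred in 3.62% of the 35116 windows of the table. Of the 22 members of the list with a window, 6 held them, in 18.8% of their 32 windows. Windows of up to 26 bases around the match are shown for *CHAC1* and *SLC3A2*, which fell, and for *ATF3*, *ASNS* and *CEBPG*, which did not pass the test, each read in the direction of its gene with the match in capitals.
CHAC1 (chr15:40953253-40953278, plus strand): cccctgccgTTGCATCActcctgcca
SLC3A2 (chr11:62881727-62881748, plus strand): caggactccTTACATCAgctcc
ATF3 (chr1:212565207-212565232, plus strand): aggtcaggaTGATGGAAggctgtcat
ASNS (chr7:97872460-97872485, minus strand): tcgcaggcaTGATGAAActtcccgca
CEBPG (chr19:33374062-33374087, plus strand): cgcggcgtcTGATGCAAcctgccggc
The match lies 209 bases before the start of *CHAC1*, on the opposite strand, and 191, 68 and 42 bases before those of *ATF3*, *ASNS* and *CEBPG*. In *SLC3A2* it lies after the start, on the opposite strand. *ATF3*, *ASNS* and *CEBPG* had log2 fold changes of -0.33 (adjusted p = 0.137), 0.02 and 0.01 (adjusted p = 0.945, edgeR), against -0.65 for *CHAC1* and -0.34 for *SLC3A2*. A match describes the letters and is not a measured binding site.

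**Figure D2:**
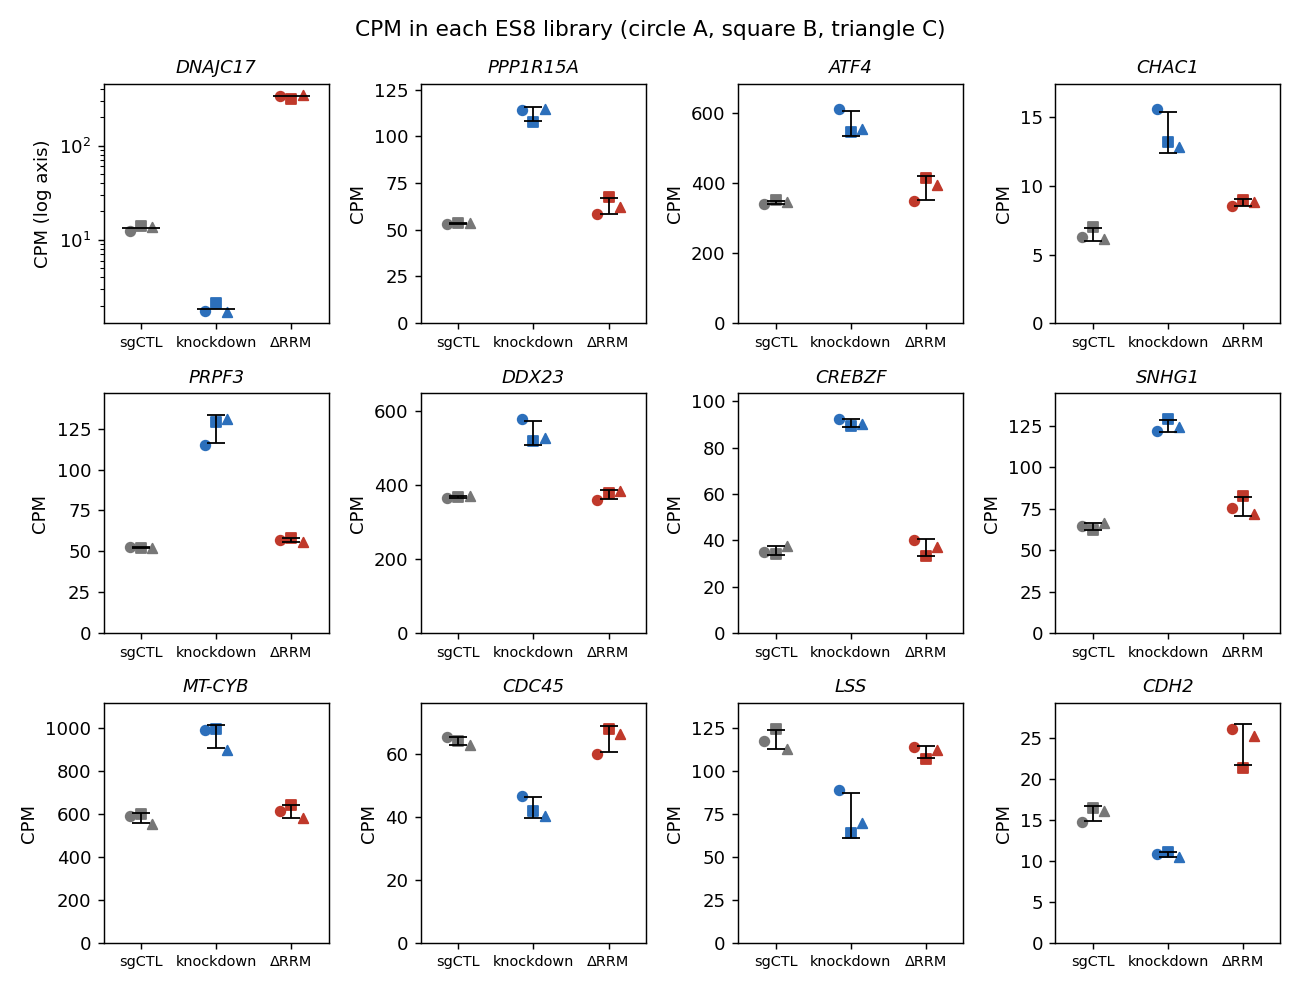
CPM of 12 genes in each of the 9 ES8 libraries (vertical axes from 0, except *DNAJC17* on a log axis), by group, with the mean and SD of 3 libraries (the mean alone for *DNAJC17*). For *PPP1R15A*, *ATF4*, *CHAC1*, *PRPF3*, *DDX23*, *CREBZF*, *SNHG1* and *MT-CYB* the ΔRRM libraries lie below all knockdown libraries, and for *CDC45*, *LSS* and *CDH2* above them.

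Chaperone genes moved little. Of 21 genes of the unfolded protein response of the endoplasmic reticulum, 3 fell and 0 rose (14.3% down, against 7.36% of all genes). They were *XBP1*, a transcription factor of that response (67.2, 63.6 and 65.9 CPM in the knockdown and 48.9, 54.7 and 50.8 CPM in ΔRRM cells, log2 fold change -0.34, adjusted p = 0.0263), *HERPUD1* (-0.35) and the HSP70 of the endoplasmic reticulum *HSPA5* (-0.26). Leaving out single libraries left 0 to 4 of this list down. Of 24 heat shock genes, 2 rose and 0 fell (8.33% up, near the 7.35% of all genes), with a median of 0.04. *HSPA8*, the constitutive HSP70 that J-domain proteins serve, had 2107, 2094 and 2065 CPM in the knockdown and 2551, 2928 and 2812 CPM in ΔRRM cells (log2 fold change 0.42, SE 0.08, adjusted p = 0.00710). *HSPE1*, the mitochondrial HSP10, had 229.8, 230.2 and 220.3 CPM in the knockdown and 298, 349.8 and 295.8 CPM in ΔRRM cells (0.48, adjusted p = 0.00569). Both genes were higher in each ΔRRM library than in any knockdown library. Without knockdown A and ΔRRM B, 3 heat shock genes rose and 6 fell, and 2 genes of the unfolded protein response rose and 7 fell. Among 39 DNAJ co-chaperone genes tested, 4 rose, *DNAJC17* among them, and 3 fell (10.3% and 7.69%, against 7.35% and 7.36% of all genes). *DNAJB2* fell from 104, 91.1 and 89.5 CPM to 47.8, 58.9 and 51.9 CPM (-0.83, adjusted p = 0.000952), and *DNAJC10*, a disulfide reductase of the endoplasmic reticulum, rose by 0.51 (adjusted p = 0.0131).

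Several genes for splicing proteins were lower in ΔRRM cells. Of 16 genes for U5 and tri-snRNP proteins, 4 fell (25%, against 7.36% of all genes) and 1 rose. *PRPF3*, a protein of the U4/U6 part of the tri-snRNP, on chromosome 1 from 150321476 to 150353195, had 114.8, 129 and 131 CPM in the knockdown and 56.8, 58.1 and 55.8 CPM in ΔRRM cells. The ΔRRM values stood within a few CPM of sgCTL (52.4, 52.2 and 52.2 CPM) and far from the knockdown. Its log2 fold change was -1.12 (SE 0.09, adjusted p = 6.30e-05, edgeR), and against sgCTL it was 0.12 (adjusted p = 0.58). *DDX23*, the helicase PRP28 that helps to release U1, had 577, 517 and 525 CPM in the knockdown and 359, 377.9 and 381.7 CPM in ΔRRM cells (-0.52, adjusted p = 0.00228), and *USP39* fell by 0.31. Of 20 genes for the PRP19 complex and related factors, 5 fell (25%) and 1, *HSPA8*, rose. *ZNF830* and *SYF2* fell by 0.69 and 0.67 (adjusted p = 0.00433 and 0.00579), while *PRPF19* itself, named here as the gene of the list's title, differed by -0.0018 on the log2 scale (adjusted p = 0.992).

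Among 8 genes of intron lariat disassembly, the step that takes the spliceosome apart, *TFIP11* fell (-0.36, adjusted p = 0.0190) and the others did not pass the test. Of 20 SR splicing factors and their kinases, 2 fell and 2 rose, 10% each way, near the 7.36% and 7.35% of all genes. *TRA2A* and *SRSF1* fell (-0.49 and -0.32), and *SRPK1*, a kinase of SR proteins, was among the 2 that rose (0.44). Of 20 genes of nonsense-mediated decay, 5 fell (25%) and 0 rose. They include *NCBP2*, a subunit of the cap-binding complex (-0.50), *SMG8* (-0.34) and the non-coding RNA *GAS5*, a substrate of that pathway (356, 353 and 338 CPM in the knockdown against 226, 271 and 239.7 CPM). The medians of these splicing lists lay between -0.14 and -0.05, against 0.01 for all genes, and 15 of 20 PRP19 genes, 10 of 16 U5 and tri-snRNP genes, 14 of 20 SR genes and 14 of 20 decay genes had values below 0. The counts moved with single libraries, as did those over all genes. When knockdown B, knockdown C, ΔRRM A or ΔRRM C was left out, 2 U5 and tri-snRNP genes and 2 PRP19 genes fell, and *TFIP11* lost its call. In those fits 677, 712, 912 and 610 of all genes fell, in that order, against 1259 in the main fit. The decay genes that fell were 2 without knockdown B, knockdown C or ΔRRM C and 3 without ΔRRM A or ΔRRM B, and the SR genes 1 without knockdown B, knockdown C or ΔRRM C and 5 without knockdown A. Without knockdown A and ΔRRM B together, 7 U5 and tri-snRNP genes fell and 2 rose, and 9 PRP19 genes fell and 1 rose. In the same fit 9 SR genes fell and 2 rose, and 7 decay genes fell and 2 rose. Over all genes 2723 fell and 2794 rose there, against 1259 and 1257 in the main fit.

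Small nucleolar RNAs, which guide the modification of other RNAs and are mostly cut from introns, were lower in ΔRRM cells. Of the 39 snoRNA and scaRNA genes that passed the filter on low counts, of 900 in the files, 17 fell and none rose. Genes that passed it only through the knockdown had to be lower in ΔRRM cells, so the one-sided count is in part set by the filter. When each library had to hold 10 counts or more, 18 were tested and 8 fell, and with no filter 249 were tested and 26 fell, and none rose in either case. *SNORD14E* (chromosome 11, 123058077 to 123058161) had 84, 86 and 102 counts in the knockdown, 14, 20 and 16 in ΔRRM cells and 26, 20 and 19 with sgCTL, a log2 fold change of -2.61 (SE 0.23, adjusted p = 9.27e-05). The library protocol selected poly-A tails, which mature snoRNAs lack, and reads on these genes can stem from the host transcript, so mature snoRNA was not measured. Between 9 and 21 passed the test with single libraries left out. Of 28 hosts, the genes whose introns or exons carry snoRNAs, 9 fell and 0 rose (32.1% down, against 7.36% of all genes), with a median of -0.21. *SNHG1* had 122, 129 and 124 CPM in the knockdown and 75.2, 82.8 and 71.6 CPM in ΔRRM cells (-0.70, adjusted p = 0.00106). Without knockdown A and ΔRRM B, 16 hosts fell and 1 rose. *SNHG17* fell by 0.72 and *EPB41L4A-AS1*, with 37.2, 36.0 and 35.2 CPM in the knockdown and 17.3, 19.8 and 17.6 CPM in ΔRRM cells, by 0.97.

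Read-through genes, which span 2 neighbouring genes in 1 transcript, fell in 10 of the 46 cases that passed the filter (21.7%, against 7.36% of all genes) and rose in none, and 21 of the 46 had values above 0. The files hold 124 such genes. Those that passed the filter only through the knockdown had to be lower in ΔRRM cells, so this one-sided count is in part set by the filter. It was not repeated with other filters. *HSPE1-MOB4* (chromosome 2, 197500413 to 197550726) had 3.45, 4.004 and 4.20 CPM in the knockdown and 0.492, 0.799 and 0.770 CPM in ΔRRM cells, near the sgCTL values of 0.598, 0.238 and 0.481 CPM. Its log2 fold change was -2.48 (SE 0.21, adjusted p = 8.36e-05), opposite to the 0.48 of *HSPE1*, and the third gene of this locus, *MOB4*, had -0.06 (adjusted p = 0.808). These genes share exons, so the counting could split their reads. *RPL36A-HNRNPH2* had 0.885, 0.806 and 0.835 CPM in the knockdown and 0.123, 0.117 and 0.0722 CPM in ΔRRM cells (-2.96, adjusted p = 0.0011). *INO80B-WBP1* fell by 1.88. Among 544 antisense genes, 28 fell and 6 rose (5.15% and 1.10%). Among 412 processed pseudogenes, 21 fell and 3 rose (5.1% and 0.728%). These shares were below the 7.36% and 7.35% of all genes. The strand setting of the counting is not stated, so reads of an antisense gene and its partner may be mixed.

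The study listed genes that changed on silencing in both of its lines, and 15 of them were entered here and 14 tested. Its long non-coding RNA genes with clone names, and *DNAJC17* itself, were not entered, so the counts below do not cover the full list. That list was chosen on the knockdown libraries used in this comparison, so its direction is not independent evidence. In ΔRRM cells 12 were lower and 1 higher than in the knockdown, 10 of the former by 2-fold or more, with a median of -1.55. *MYO5C*, an unconventional myosin and the listed gene that was higher, had 0.649, 0.751 and 0.556 CPM in the knockdown and 1.75, 1.67 and 1.78 CPM in ΔRRM cells (log2 fold change 1.42, SE 0.23, adjusted p = 0.00282). Of the others, *CACTIN-AS1* had a log2 fold change of -2.06, *BAAT* -1.93, *DCAF4L1* -1.81, *SNORD67* -1.65, *OVGP1* -1.45, *SCARNA12* -1.36, *SNORA5C* -1.08 and *SNORA5A* -0.97. *RASL11A* did not pass the test, with 0.914, 0.667 and 1.31 CPM in the knockdown and 0.246, 0.916 and 0.698 CPM in ΔRRM cells, where the groups overlap. None of these 14 differed from sgCTL in ΔRRM cells at an adjusted p under 0.05, with a median log2 difference of 0.14. Low counts limit this test. *DCAF4L1* had 14, 14 and 10 counts in ΔRRM cells and 12, 1 and 5 with sgCTL. Its log2 difference from sgCTL was 1.16 (adjusted p = 0.528, edgeR over 9 libraries). The genes in which the study followed skipped exons, *CDK4*, *MTF2*, *AURKB*, *GINS1*, *CCT7*, *PPIA* and *MAPKAP1*, had log2 fold changes from -0.20 to 0.24. None of the 7 passed the test, and the groups overlapped for each. Without knockdown A and ΔRRM B, 1 rose and 1 fell. Gene counts do not hold exon inclusion.

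Genes of the mitochondrial genome were lower in ΔRRM cells. Of 13 mitochondrially encoded protein genes, 10 fell and 0 rose (76.9% down, against 7.36% of all genes), with a median of -0.62. *MT-CYB*, a subunit of complex III, had 991.6, 996.8 and 898.9 CPM in the knockdown and 612.4, 640.2 and 582.8 CPM in ΔRRM cells (-0.64, SE 0.08, adjusted p = 0.001). *MT-ND4* of complex I and *MT-ATP6* of the ATP synthase fell by 0.60 and 0.64, and the transfer RNA gene *MT-TV* by 1.22. The share of all counts on the mitochondrial genome was 1.48% to 1.74% in the knockdown, 1.06% to 1.18% in ΔRRM cells and 1.10% to 1.13% with sgCTL, and its part in these results was not tested. Of 30 respiratory chain genes of the nucleus, *ATP5MC1* rose (0.62, adjusted p = 0.0058) and *COX6C* fell (-0.30, adjusted p = 0.0382), with a median of 0.03. Without knockdown A, 6 of them rose and 2 fell, and without both knockdown A and ΔRRM B 6 rose and 7 fell. Of 84 cytosolic ribosomal protein genes, 3 fell, *RPL22*, *RPL37* and *RPS12* (-0.38, -0.35 and -0.35), and the median was -0.13. This is 3.57% of the list, below the 7.36% of all genes. Between 0 and 22 of the ribosomal protein genes fell with single libraries left out, and 59 did without knockdown A and ΔRRM B. Over all genes 2723 fell in that last fit.

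Immediate early genes, which cells induce within minutes of a stimulus, fell in 5 of 23 cases (21.7%, against 7.36% of all genes) and rose in none, with a median of -0.20. Without ΔRRM C 2 fell, without knockdown C 3 fell, and without knockdown A and ΔRRM B 6 fell and 3 rose. *FOSB*, a subunit of AP-1, had 1.21, 1.06 and 1.39 CPM in the knockdown and 0.295, 0.493 and 0.529 CPM in ΔRRM cells (-1.45, adjusted p = 0.00868). *IER2*, *KLF10* and *DUSP1* fell by 0.45, 0.42 and 0.46. Of 24 targets of p53, 4 fell and 1, *FDXR*, rose (0.50, adjusted p = 0.0202). The shares were 16.7% down and 4.17% up, against 7.36% and 7.35% of all genes. *SESN2* and *GDF15*, which are also in the integrated stress response list, were 2 of the 4. With single libraries left out, 0 (without ΔRRM C) to 6 (without knockdown A) of the p53 targets fell.

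**Figure D3:**
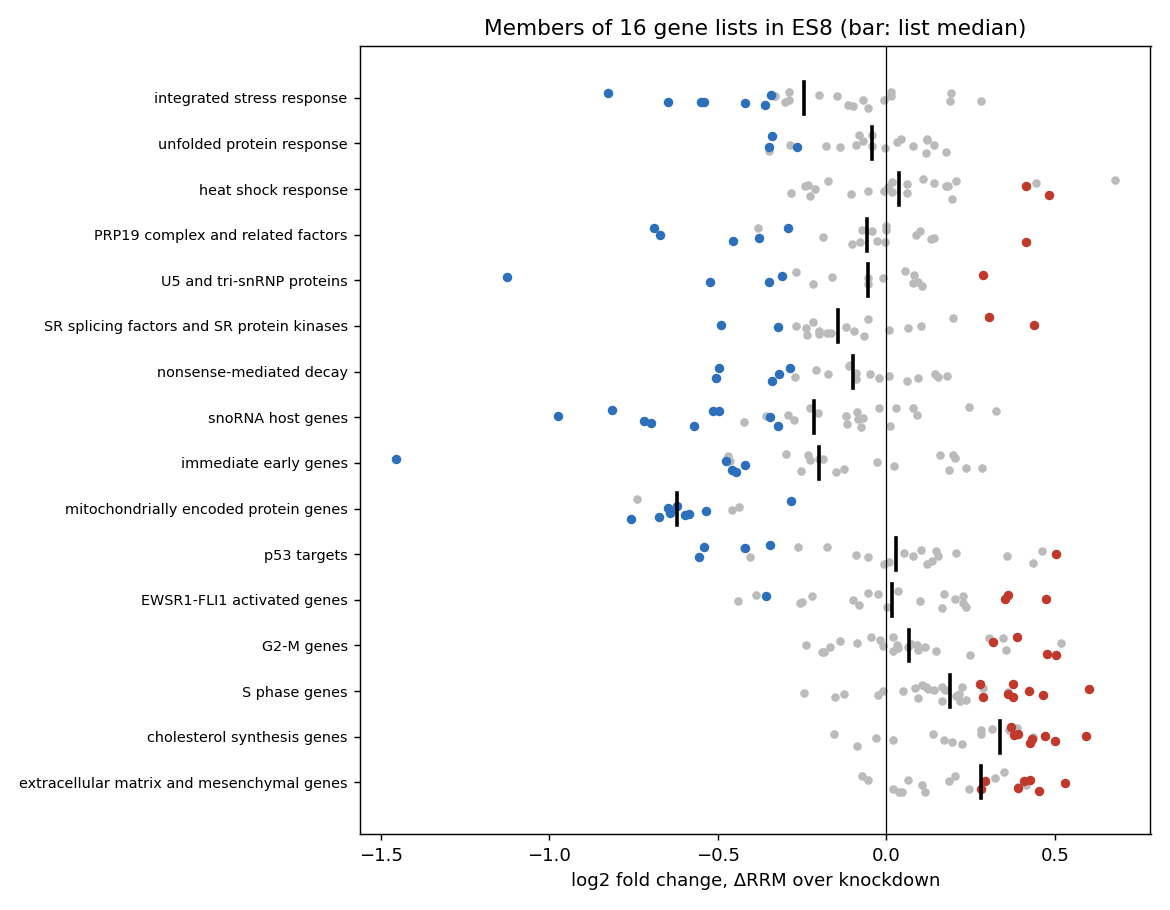
Log2 fold change of ΔRRM over knockdown for the tested members of 16 gene lists in ES8, 1 point per gene, red where the gene rose and blue where it fell at an adjusted p under 0.05, grey otherwise, with the list median as a black bar. The mitochondrially encoded protein genes lie farthest to the left (median -0.62), and the cholesterol synthesis (0.34), extracellular matrix (0.28) and S phase genes (0.19) to the right.

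Genes of DNA replication were higher in ΔRRM cells. Of 30 S phase genes, 8 rose and 0 fell (26.7% up, against 7.35% of all genes), with a median of 0.19. *CDC45*, a part of the replicative helicase, had 46.7, 42.0 and 40.4 CPM in the knockdown and 60.1, 68.0 and 66.4 CPM in ΔRRM cells, where sgCTL had 62.8 to 65.5 CPM. Its log2 fold change was 0.60 (SE 0.10, adjusted p = 0.00268). The histone chaperone subunit *CHAF1B* and *RRM2*, a subunit of ribonucleotide reductase, rose by 0.47 and 0.38. Of 28 G2-M genes, 4 rose and 0 fell (14.3% up, against 7.35% of all genes), with a median of 0.07. They include *CDC25B*, a phosphatase that activates CDK1 (85.4, 66.8 and 68.9 CPM in the knockdown against 96.1, 108 and 107 CPM), and the spindle checkpoint kinases *BUB1B* and *BUB1* (0.39 and 0.32). In bulk RNA, a larger share of cells in a phase and more RNA per cell cannot be told apart. Single libraries left out gave 3 to 11 S phase genes up and 1 to 4 G2-M genes up. Without knockdown A and ΔRRM B, 15 S phase genes rose and 3 fell, and 5 G2-M genes rose and 6 fell. Over all genes 2794 rose and 2723 fell in that fit.

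Cholesterol synthesis genes, targets of the SREBP transcription factors, were higher in ΔRRM cells. Of 22 tested, 8 rose and 0 fell (36.4%), with a median of 0.34. *LSS*, the enzyme that makes lanosterol, had 89.1, 64.1 and 70.0 CPM in the knockdown and 114, 107 and 113 CPM in ΔRRM cells (0.59, SE 0.11, adjusted p = 0.00569). *FDPS* and *FDFT1*, enzymes of the steps that lead to squalene, rose by 0.50 and 0.43. Both sat above sgCTL as well, with ΔRRM values of 181.5, 189 and 177.6 CPM against 156.4 to 161.6 CPM for *FDFT1*, a log2 difference of 0.19 that did not pass the test (adjusted p = 0.41). Of 23 extracellular matrix and mesenchymal genes, 7 rose and 0 fell (30.4%), with a median of 0.28. *COL4A1* and *COL4A2*, the chains of basement membrane collagen, rose by 0.53 and 0.45 (adjusted p = 0.00720 and 0.00608), and *COL5A2* by 0.41. The *COL4A1* values were 37.5, 36.4 and 37.8 CPM in the knockdown and 59.8, 46.9 and 53.5 CPM in ΔRRM cells, lowest in ΔRRM B. Between 2 and 10 of the matrix genes and 3 and 10 of the cholesterol genes rose with single libraries left out, and 15 of 24 and 12 did without knockdown A and ΔRRM B.

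After *DNAJC17*, the genes with the largest rise and a mean count of at least 100 were *VCAN*, *UGT8*, *CCK*, *FRAS1*, *SLC16A7*, *IGFN1*, *CDH2*, *FHOD3*, *SLC43A3*, *COL2A1* and *SLC6A15*, with log2 fold changes from 1.00 to 1.42. The proteoglycan versican (*VCAN*) had 1.83, 3.06 and 2.78 CPM in the knockdown and 8.12, 4.32 and 8.06 CPM in ΔRRM cells. *FRAS1*, a basement membrane protein, had 4.78, 4.25 and 4.15 CPM in the knockdown and 12.9, 6.72 and 11.4 CPM in ΔRRM cells. In both genes ΔRRM B was the lowest ΔRRM library and still above every knockdown library. N-cadherin (*CDH2*) had 10.8, 11.1 and 10.5 CPM in the knockdown and 26.1, 21.4 and 25.2 CPM in ΔRRM cells (1.17, SE 0.12, adjusted p = 0.000231).

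Not all of these genes stood at the sgCTL level in ΔRRM cells. *CDH2* was above sgCTL (14.8, 16.5 and 16.1 CPM) in each ΔRRM library, with a log2 fold change against sgCTL of 0.62 (adjusted p = 0.0166, edgeR over 9 libraries). The same held for *SLC43A3*, a purine base transporter, with 0.65 (adjusted p = 0.011), for *COL2A1*, a fibrillar collagen, with 0.69 (adjusted p = 0.0285), and for the neuropeptide gene *CCK* with 1.74 (adjusted p = 0.0017). *CCK* had 3.42, 2.23 and 2.00 CPM in the knockdown, 5.09, 7.02 and 5.80 CPM in ΔRRM cells and 1.68 to 1.95 CPM with sgCTL. In the knockdown, *CCK* and *COL2A1* did not pass the test against sgCTL (0.50 and -0.30, adjusted p = 0.0887 and 0.0853, edgeR over 9 libraries). *UGT8*, *FRAS1*, *VCAN*, *IGFN1*, *SLC16A7*, *FHOD3* and *SLC6A15* did not differ from sgCTL in ΔRRM cells at an adjusted p under 0.05 (log2 differences from 0.23 to 0.58).

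The 12 largest falls with a mean count of at least 100 were *AOC3*, *CACTIN-AS1*, *AOC2*, *OVGP1*, *SYCP1*, *CREBZF*, *MID1IP1-AS1*, *MT-TV*, *ZNF805*, *SEC14L1P1*, *BTN2A3P* and *MAB21L3*, with log2 fold changes from -2.17 to -1.15. *AOC3* and *AOC2* encode copper amine oxidases and lie next to each other on chromosome 17 (42851184 to 42858130 and 42844600 to 42850707). *AOC3* had 4.57, 3.92 and 5.51 CPM in the knockdown and 1.03, 1.10 and 0.939 CPM in ΔRRM cells (-2.17, SE 0.19, adjusted p = 8.36e-05). *AOC2* had 5.22, 3.84 and 4.10 CPM against 1.57, 0.822 and 2.09 CPM. *CREBZF*, a bZIP protein that interacts with host cell factor, was the most abundant of the 12, at 92.4, 89.3 and 90.3 CPM in the knockdown and 40.3, 33.3 and 37.2 CPM in ΔRRM cells (-1.28, SE 0.10, adjusted p = 4.49e-05).

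*SYCP1*, of the meiotic synaptonemal complex, and *MAB21L3* departed from the other falls. *SYCP1* had 5.60, 16.6 and 14.5 CPM in the knockdown and 6.18, 4.96 and 3.47 CPM in ΔRRM cells, so knockdown A overlapped the ΔRRM libraries. It lost its call (adjusted p of 0.05 or more) without ΔRRM B or C and with DESeq2. *MAB21L3* had 14.2, 14.6 and 17.5 CPM in the knockdown, 7.46, 4.34 and 8.90 CPM in ΔRRM cells and 14.03, 14.6 and 16.1 CPM with sgCTL, so it stood below both parental groups. Its log2 fold change against sgCTL was -1.11 (adjusted p = 0.0258).

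The direction of change followed the number of exons of a gene. The 13883 protein-coding genes tested were sorted by their separate exonic blocks, the exon intervals of the files joined where they overlap. Of 365 genes with 1 block, 23.8% fell and 2.47% rose, with a median log2 fold change of -0.20. Of 382 genes with over 40 blocks, 1.57% fell and 20.4% rose, with a median of 0.24. The medians of the bins between, from 2 to 5 up to 21 to 40 blocks, were -0.04, -0.02, 0.04 and 0.12, so they rose from bin to bin. Protein-coding genes called up had a median of 13 blocks (63 genes), those called down 7 (105 genes) and all tested 11.

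Single libraries carried this pattern unequally. Against the sgCTL mean, the knockdown libraries A, B and C had median log2 differences of 0.30, 0.18 and 0.22 for genes with 1 block and -0.34, -0.35 and -0.36 for genes with over 40 blocks. ΔRRM A had 0.02 and -0.02, and ΔRRM C had 0.04 and -0.08. ΔRRM B had 0.08 for 1 block, below the knockdown libraries, but 0.11 for 2 to 5 blocks, 0.07 for 6 to 10, -0.15 for 21 to 40 and -0.35 for over 40, where the knockdown libraries had 0.06 to 0.14, 0.05 to 0.06, -0.19 to -0.16 and -0.36 to -0.34. It thus lay close to the knockdown in most bins. Without ΔRRM B, the median of the fitted log2 fold changes for genes with over 40 blocks was 0.35 in place of 0.24, and without both ΔRRM B and knockdown A it was 0.32, with -0.20 for genes with 1 block. Exon number goes with gene length and base composition, and their part in the pattern was not tested.

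**Figure D4:**
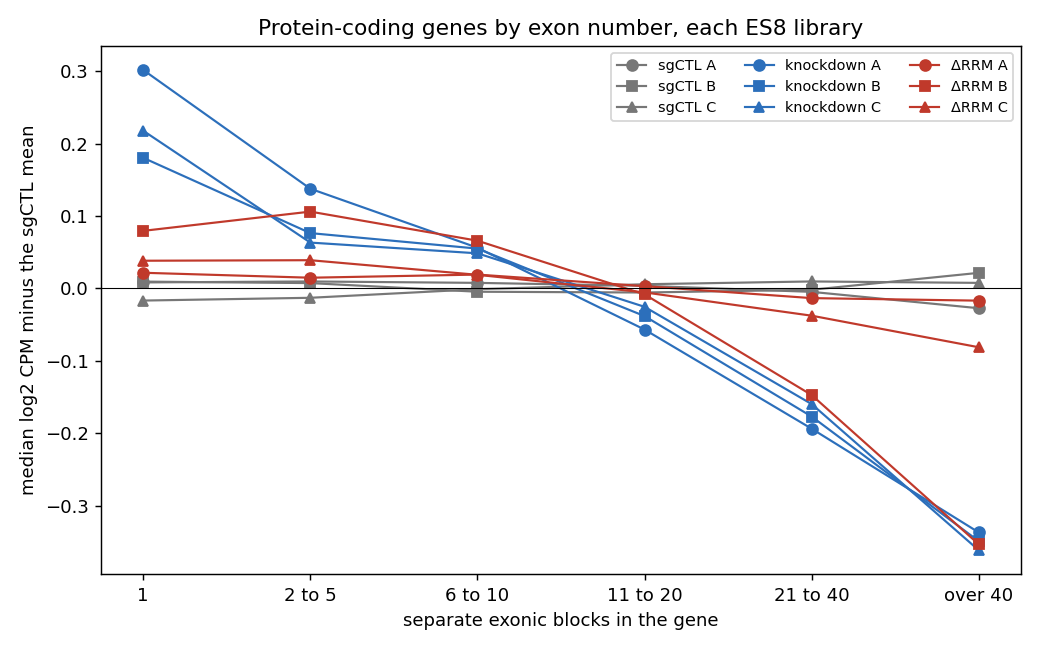
Median log2 CPM minus the sgCTL mean (vertical) over protein-coding genes grouped by the number of separate exonic blocks (horizontal), 1 line per ES8 library. The 3 knockdown lines run from 0.18 to 0.30 down to -0.36 to -0.34, ΔRRM A and C stay between -0.08 and 0.04, and ΔRRM B runs close to the knockdown from 2 to 10 blocks and above 20 blocks (-0.35 at over 40).

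Lists of Ewing sarcoma and other programmes showed few or mixed changes. Over all genes 7.35% rose and 7.36% fell. The EWSR1-FLI1 activated list had 13.6% up and 4.55% down, and the repressed list 8.33% each way. The hypoxia list had 8.7% up, the interferon list 4.76% up and the histone list 5.56% up. Of 22 genes that the fusion EWSR1-FLI1 is known to activate, *VRK1*, *PPP1R1A* and *NR0B1* rose (0.47, 0.35 and 0.36) and *BCL11B* fell (-0.36), with a median of 0.02. Of 12 that it represses, *IGFBP5* rose (0.47) and *DUSP1* fell. Of 23 hypoxia and glycolysis genes, *VEGFA* and *LDHA* rose (0.34 and 0.27). Of 21 interferon-stimulated genes, *IFI44L* rose (3.24, 4.98 and 5.03 CPM in the knockdown against 7.06, 7.12 and 7.22 CPM, 0.70, adjusted p = 0.016). Of 36 replication-dependent histone genes, 2 rose, *H2BC11* and *H3C8* (0.75 and 0.90), although histone transcripts mostly lack the poly-A tail the libraries select. Of 225 divergent transcripts, 4 fell and 3 rose (1.78% and 1.33%, below the shares of all genes). The epithelial marker *KRT18* rose by 0.42 (28.8, 25.1 and 23.2 CPM against 34.2, 36.4 and 31.4 CPM), and *FGFR4* of the muscle list by 0.34. Each of the 13 genes named in this group of lists lost its call in at least 1 of the 6 fits that left out a single library, *IFI44L* in 1 and *KRT18*, *NR0B1*, *BCL11B*, *PPP1R1A* and *LDHA* in 5 each.

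Beside ES8, the ΔRRM libraries of Rh30 were compared with the Rh30 knockdown in the same way. At the adjusted p alone, 29.4% of 15309 genes rose and 30.5% fell there, so shares of a list must be read against these values. The effects in ES8 and Rh30 were weakly related over the 13765 genes fitted in each (Pearson 0.233, Spearman 0.207), a description across genes, which are not independent replicates. Calls with the 2-fold requirement as well have a smaller background in Rh30, 380 of these 13765 genes down and 439 up. Of the genes called in ES8 at that threshold and tested in both lines, 40 of 112 called down (35.7%) were also called down in Rh30. They were 10.5% of the 380 called down there. Of those called up, 6 of 40 were called up in both (15% and 1.37% of the 439 in Rh30). The 6 were *DNAJC17*, *MYO5C*, *CDH2*, *IGFN1*, *LUM* and *PDZD7*, the last 2 named after their values were seen. *CREBZF* had a log2 fold change of -1.30 in Rh30, *HSPE1-MOB4* -2.11 and *PPP1R15A* -1.19.

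The difference between the lines was tested as an interaction over 12 libraries. It passed at an adjusted p under 0.05 for 5326 of 18812 genes (28.3%), 2924 with the higher effect in ES8 and 2402 with the lower. Higher and lower refer to the signed log2 fold change and not to its size. A lower effect in ES8 can thus be a deeper fall there, and a higher one a deeper fall in Rh30. The smallest p belonged to *ZNF853*, *LIMCH1* and the protease inhibitor *SERPINE2*, with log2 differences (ES8 minus Rh30) of 2.42, 2.00 and 1.78. All 3 fell in Rh30, by 2.60, 1.91 and 1.52, and did not pass the test in ES8 (-0.20, 0.06 and 0.25). For 18 of 23 matrix genes the effect was higher in ES8 (median difference 0.89). *COL4A1*, *COL4A2* and *COL5A2* rose in ES8 and had log2 fold changes of -0.31, -0.49 and -0.92 in Rh30. For 14 of 22 cholesterol genes it was also higher in ES8, and *LSS* had -0.57 in Rh30. For 73 of 84 ribosomal protein genes and 21 of 30 nuclear respiratory chain genes the effect was lower in ES8, with median differences of -0.73 and -0.58. Of the 24 integrated stress response genes, 6 were higher and 6 lower in ES8.

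Exon number did not sort genes the same way in Rh30. There, the median log2 fold change was -0.31 for 269 genes with 1 block, 0.07 and 0.06 for 2 to 5 and 6 to 10 blocks, and -0.25 for 316 genes with over 40 blocks.

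**Figure D5:**
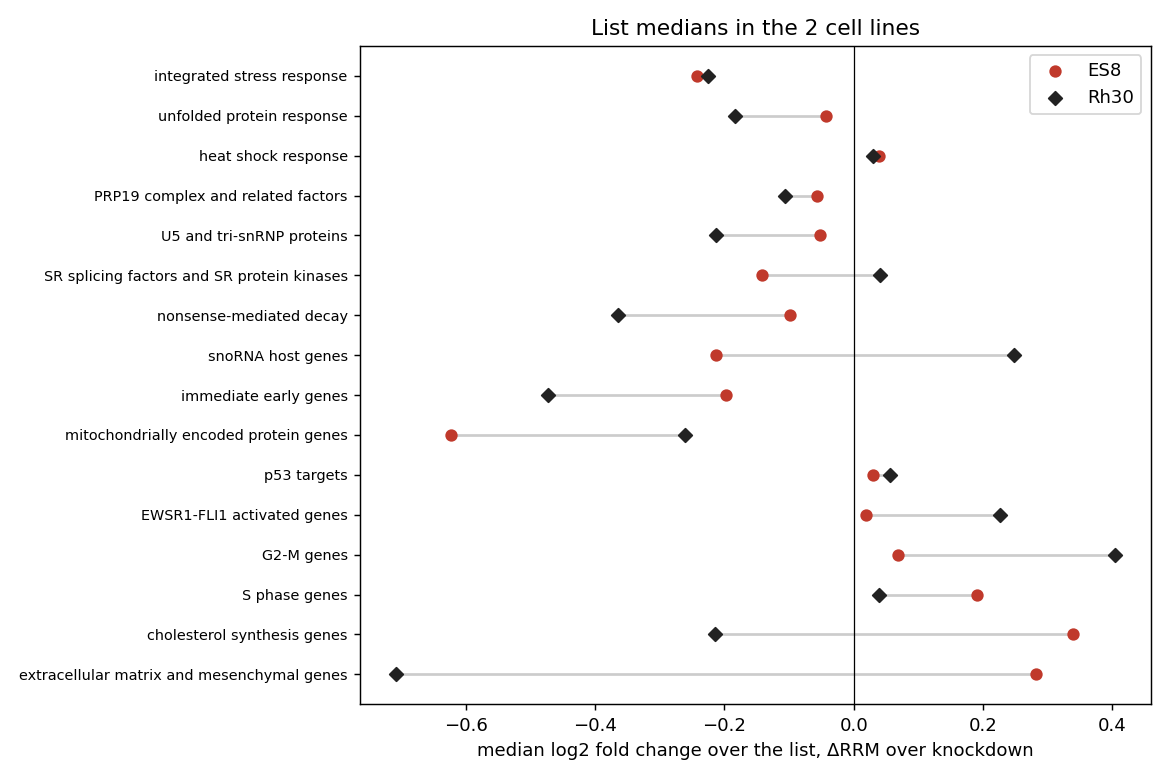
Median log2 fold change of ΔRRM over knockdown for 16 gene lists in ES8 (red circles) and Rh30 (black diamonds). The integrated stress response medians are close (-0.24 and -0.23), and those of cholesterol synthesis (0.34 and -0.21), extracellular matrix (0.28 and -0.71) and snoRNA host genes (-0.21 and 0.25) differ in sign.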

How the data were processed

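RNA from 18 libraries was analysed, and the comparison used 6, with 9 ES8 libraries for the sgCTL reference and 12 for the interaction of the 2 lines. The authors deposited, per library, raw counts of reads per gene for 57500 genes, without normalization, made per the submitters' processing notes with Trimmomatic 0.36, STAR 2.5.2b and featureCounts of Subread 1.5.2. The files' coordinates are GRCh38, while the paper's methods name an older build. The strand setting is not given in the sources used here. Of the Ensembl identifiers, 55082 matched GENCODE v44, and 17127 genes had no symbol.

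Differences in counts were fitted by edgeR 4.0.16 under R 4.3.3 (TMM, filterByExpr, quasi-likelihood test, Benjamini-Hochberg adjustment). Tested on simulated data, the fit recovered 200 of 200 changed genes among 16843, with 1 false call. The changed genes had mean counts of at least 100 and changes beyond 2-fold, and no library was made to stand apart. The recovery of genes with low counts or smaller changes was therefore not tested. Alternatives used DESeq2 1.42.0 and the settings given under the processing. limma 3.58.1, Python 3.11.15, pandas 2.3.3, numpy 2.4.6, scipy 1.17.1 and matplotlib 3.10.9 were also used. GC content came from the longest GENCODE transcript of a gene. Log2 CPM medians by library used 0.5 added to CPM.

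The comparison, the gene lists and the tests were chosen with earlier results of these data known. Named genes were taken from *DNAJC17*, genes with a 5' end within 50 kb of its own, the 12 called genes with a symbol, a mean count of at least 100 and the largest change in each direction, the 3 members with the smallest p in each list, the tested members of the study's 2 lists, and the 3 leading genes of the interaction by p. Others are named as members of a counted set. Of the epithelial list, *KRT18* is named, since it alone passed the test, and the others are given as a sum.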

Additional observations from a re-analysis of the deposited data

Results flagged for a closer look

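The effect of ΔRRM over knockdown differed between ES8 and Rh30 for 5326 of 18812 genes (28.3%). This was at an adjusted p under 0.05 in the edgeR interaction over 12 libraries. Of 132 genes named in the text, 44 are among them, a count to be read against that share. *ZNF853*, *LIMCH1* and *SERPINE2* were named for the smallest p of this test, so they are among the 44 by choice. Differences are log2 values, ES8 minus Rh30. Higher and lower effects are meant by sign and not by size. *DDX23*, with the lower effect in ES8, had log2 fold changes of -0.52 in ES8 and -0.17 in Rh30, the deeper fall in ES8. The extracellular genes *COL4A1* (0.86), *COL4A2* (0.96), *COL5A2* (1.35), *SERPINE2* (1.78), *VCAN* (1.91) and *FRAS1* (2.26) had the higher effect in ES8, as did the cholesterol synthesis genes *FDPS* (0.37) and *LSS* (1.18). The splicing genes *TRA2A* (-0.73), *PRPF3* (-0.70), *SYF2* (-0.42) and *DDX23* (-0.33) and the non-coding or pseudogene transcripts *BTN2A3P* (-1.44), *SCARNA12* (-1.21), *GAS5* (-1.09), *EPB41L4A-AS1* (-1.05) and *MID1IP1-AS1* (-0.97) had the lower effect in ES8, as did *RPS12* (-1.45), *COX6C* (-0.92), *RPL37* (-0.79), *RPL22* (-0.58), *MT-CYB* (-0.52) and *MT-ND4* (-0.50) of the ribosome and the respiratory chain. Stress and chaperone genes were split, with *HERPUD1* (-0.62), *DNAJB2* (-0.50), *ATF4* (-0.36), *PPP1R15A* (0.39) and *DNAJC10* (0.66). The cell cycle and skipped-exon genes were *MTF2* (-0.62), *AURKB* (-0.48), *GINS1* (-0.47) and *CDC25B* (0.69). Of the muscle markers, *DES* (1.27) and *MYOD1* (1.63) were flagged, and both were highest in ΔRRM C among the ES8 libraries. *SLC6A15* (-2.84) and *FHOD3* (2.98) rest on few reads in Rh30, where the mean was 0.00665 CPM in the knockdown and 0.148 CPM in ΔRRM cells for *SLC6A15*, and 0.0726 and 0.0157 CPM for *FHOD3*, and neither gene passed the filter there. *AOC3* and *C15orf62* were below 1 CPM in Rh30. The others were *AOC3* (-1.63), *C15orf62* (-1.15), *LDHA* (-0.32), *ZFYVE19* (0.89), *SLC43A3* (1.41), *UGT8* (1.54), *LIMCH1* (2.00) and *ZNF853* (2.42). Groups of 3 libraries are too small for the test of single outlying samples, so none was made.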

How the results depend on the processing

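Under every alternative run, *DNAJC17* was called up (log2 fold change 7.43 to 7.6). Genes called up numbered 82 and ran from 55 to 81 with single libraries left out, 30 at an adjusted p under 0.01, 153 at an unadjusted p under 0.05, 1257 with no fold requirement and 132 with knockdown A and ΔRRM B left out, an alternative chosen after seeing the data. Genes called down numbered 254 and ran from 176 to 240 with single libraries left out, with 155 where every library had to hold 10 counts, 115 at an adjusted p under 0.01 and 1259 with no fold requirement. At the adjusted p alone, the 1257 genes up became 457 without knockdown B, 580 without knockdown C, 460 without ΔRRM C, 805 without ΔRRM A and 1738 without knockdown A, and the 1259 down became 677, 712 and 610 without knockdown B, knockdown C and ΔRRM C and 1636 without knockdown A. With all ES8 libraries in 1 fit they were 1912 and 1966, without knockdown A and ΔRRM B 2794 and 2723, at an adjusted p under 0.01 359 and 453, and unadjusted 2672 and 2488. With the replicate block they were 618 and 735. Deviations of libraries with the same letter from their group means had correlations of -0.38, -0.09 and -0.14 for A, B and C. Knockdown A and ΔRRM B stood apart in their groups, so these values cannot decide whether the letters mark a shared batch. The reason for the lower counts with the block was not tested. DESeq2 gave 73 genes up and 248 down. The interaction gave 5326 genes, 3322 at an adjusted p under 0.01, 1165 with a 2-fold difference as well and 4132 to 6280 with single libraries left out. Of 133 named genes tested, 26 lost their call with the block and 3 to 35 with a single library left out, and none reversed. The median changed sign in at least 1 setting for 11 lists, to values between -0.05 and 0.06. They were the heat shock, unfolded protein response, G2-M, p53, lariat disassembly, skipped-exon, EWSR1-FLI1 activated, EWSR1-FLI1 repressed, nuclear respiratory chain, ES8 identity and muscle lists. The causes were not tested. Low counts limit the snoRNA genes, where 16 of the 17 that passed the test had changed by 2-fold or more.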

Other observations

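The muscle markers were not even across the ΔRRM libraries of ES8. *MYOD1*, the myogenic transcription factor that Rh30 cells express, was 0.738 CPM in ΔRRM A, 0.892 CPM in ΔRRM B and 1.95 CPM in ΔRRM C, and *DES*, the muscle intermediate filament protein, was 0.615, 0.470 and 1.88 CPM. Without ΔRRM C, the median log2 fold change of the muscle list over the knockdown was -0.01 in place of 0.34. The source of these reads was not tested.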
